A study of Mus musculus with 6 samples.

Results

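Kruppel-like factors (KLFs) are transcription factors that bind GC boxes and CACCC boxes in promoters through a run of zinc fingers at their carboxyl end, and their amino ends decide whether they activate or repress. KLF2 and KLF4 are best known from endothelial cells and as antagonists of contractile gene expression, KLF5 as a driver of proliferation, KLF6 and KLF10 as early response genes in injury and TGF-β signalling, and KLF15 as a glucocorticoid-responsive factor that restrains hypertrophy and fibrosis in the heart. The 10 KLF genes described here are *Klf2*, *Klf3*, *Klf4*, *Klf5*, *Klf6*, *Klf7*, *Klf9*, *Klf10*, *Klf13* and *Klf15*, found by their symbols among the 22063 genes of the deposited table. All 10 had enough counts to be tested.

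RNA was sequenced from primary cardiac fibroblasts of mice that carried floxed *Tet3* alleles (Tet3 f/f, on a C57BL/6J background). Cells of the control group (GFP, 3 libraries) received an adenovirus coding for green fluorescent protein, those of the Tet3 knockout group (CRE, 3 libraries) one coding for Cre recombinase, and both were then given TGF-β for a day. Cre was delivered in culture, so any cell the virus entered could recombine, and the age of the animals is not stated. The study calls its replicates biological, in a legend that covers several assays, but what separated the libraries of a group (culture, animals or day) is not stated. P-values measure the spread between these libraries. The comparison asks which transcripts depend on TET3, an enzyme that oxidises methylated cytosine in DNA, while the cells are activated. The groups also differ in Cre, so effects of Cre itself and of *Tet3* loss cannot be told apart here. In the study's reagent list the Cre virus carries green fluorescent protein as well.

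*Tet3* itself had 1044, 965 and 1000 counts in GFP and 642, 649 and 637 in CRE libraries, a log2 fold change of -0.72 (SE 0.08, edgeR adjusted p of 5.36e-05). The count covers the whole gene and not only floxed exons. Total counts were between 17002126 and 20343590 per library, and 6583 of 12862 tested genes (51.2%) passed an adjusted p of 0.05. Of 9 fibroblast markers 8 were lower and none higher, with summed levels between 29274 and 30438.5 CPM (read counts scaled to a common library size) in GFP and between 18096 and 19505 CPM in CRE libraries. Smooth muscle and pericyte markers (4 lower and 1 higher of 8) summed to between 95.7 and 105 CPM in GFP and between 86.0 and 99.9 CPM in CRE libraries. Macrophage markers (2 lower of 4 tested) summed to between 32.5 and 35.5 CPM in GFP and between 19.9 and 23.8 CPM in CRE libraries. Of these markers *Ptprc* and *C1qa* were too low to test. Cardiomyocyte markers summed to at most 0.994 CPM, and *Myh6* had no count in any library, which allows up to between 0.156 and 0.186 CPM per library, counting error only.

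The promoters of *Klf2*, *Klf4* and *Klf15* are shown because *Klf2* and *Klf15* were the promoter-matched members that rose and fell furthest, and *Klf4* is the closest relative of *Klf2* with a far smaller change. Promoter sequence (RefSeq, GRCm38.p6, from 250 bases before to 50 after the start) was found for 8 of the 10 members, all except *Klf5* and *Klf10*. Sequences read 5′ to 3′ on the strand of the gene, and capitals mark the motif named for each.
*Klf2*, chr8:72318812-72319111, plus strand, capitals for the MEF2 site (CTA and TAG with 4 bases of any kind between them) and for GC boxes (GGGCGG): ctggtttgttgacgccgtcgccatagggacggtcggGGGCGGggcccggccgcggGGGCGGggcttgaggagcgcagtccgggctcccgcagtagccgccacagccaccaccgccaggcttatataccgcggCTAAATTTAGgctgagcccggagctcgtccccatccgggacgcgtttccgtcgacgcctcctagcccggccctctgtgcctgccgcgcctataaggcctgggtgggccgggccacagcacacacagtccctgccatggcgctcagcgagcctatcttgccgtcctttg
*Klf4*, chr4:55532426-55532725, minus strand, capitals for GC boxes on either strand: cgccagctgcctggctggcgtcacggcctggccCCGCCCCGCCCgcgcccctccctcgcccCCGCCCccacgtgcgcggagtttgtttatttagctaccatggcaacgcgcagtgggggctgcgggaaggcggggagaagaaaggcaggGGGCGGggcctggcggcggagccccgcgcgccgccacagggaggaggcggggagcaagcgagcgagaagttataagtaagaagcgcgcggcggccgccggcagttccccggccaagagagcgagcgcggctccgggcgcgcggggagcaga
*Klf15*, chr6:90462326-90462625, plus strand, capitals for E-boxes (CACGTG): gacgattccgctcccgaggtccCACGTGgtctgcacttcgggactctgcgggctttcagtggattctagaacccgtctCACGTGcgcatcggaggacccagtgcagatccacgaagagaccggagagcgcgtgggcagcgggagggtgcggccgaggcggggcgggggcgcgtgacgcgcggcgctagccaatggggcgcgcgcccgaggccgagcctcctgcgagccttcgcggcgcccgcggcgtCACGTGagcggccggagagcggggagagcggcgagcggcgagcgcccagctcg

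CpG, the dinucleotide whose methylation TET enzymes act on, was counted in the 8 promoters found. They held between 16 (*Klf7*) and 47 (*Klf15*) CpG each, with a median of 30.5, against a median of 20 over 13006 promoters of tested genes. The *Klf7* count belongs to a start inside the annotated gene. Its window covers positions 64121340 to 64121639 on the minus strand, and the 5′ end of the gene is at 64122282. *Klf15*, which fell, had the most, and 2.17% of promoters of tested genes had more, whereas 61.3% had more than *Klf7* and 39.3% more than *Klf6*. *Klf2* and *Klf13* held 32 CpG each, yet *Klf2* rose and *Klf13* had a change close to 0, so members with equal CpG counts differed in their change. Methylation was not analysed here.

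Motifs were searched by their letters on both strands, with overlapping matches counted. A GC box, itself a site that KLF and SP proteins can bind, stood in 7 of the 8 promoters, *Klf9* being the exception, against 35.7% of all 32851 promoters and 62.0% of those of tested genes. *Klf4* held 4 GC boxes, a pair of which overlap, *Klf3* held 6 and *Klf2* held 2. The CACCC letters were in 6 of 8 (57.5% of all promoters and 63.4% of those of tested genes), and the E-box letters in 3 of 8 (*Klf4*, *Klf6* and *Klf15*, against 7.15% of all promoters and 9.77% of those of tested genes), with 3 matches in *Klf15*. CCAAT letters were in 4 of 8 (37.4% of all promoters and 37.7% of those of tested genes), and TATAAA in none of 8 (13.6% and 7.30%). The MEF2 letters were in 1 of 8, the *Klf2* promoter, at position -118 from the start, and in 3.69% of all promoters and 2.96% of those of tested genes. These matches describe letters in a window and not binding.

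Of the 10 members, 4 rose and 2 fell in the knockout group (adjusted p under 0.05), against 25.5% higher and 25.7% lower among all tested genes. *Klf5*, *Klf2* and *Klf10* rose by over 1 on the log2 scale, *Klf4* rose slightly, *Klf15* fell to 24.2% of its control level and *Klf3* fell slightly. *Klf6*, *Klf7*, *Klf9* and *Klf13* did not pass the threshold. By the criteria of the study (p under 0.05 before adjustment, and a fold over 1.5 or under 0.66) 3 members were higher (*Klf2*, *Klf5* and *Klf10*) and 1 lower (*Klf15*), where 7.52% and 10.3% of all tested genes were. On CPM, 7 of the 10 had groups that did not overlap, against 59.6% of all tested genes. The exact two-sided permutation test of 3 against 3 libraries gave p = 0.1 for each of these 7, the smallest p that this design allows.

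**Figure D1:**
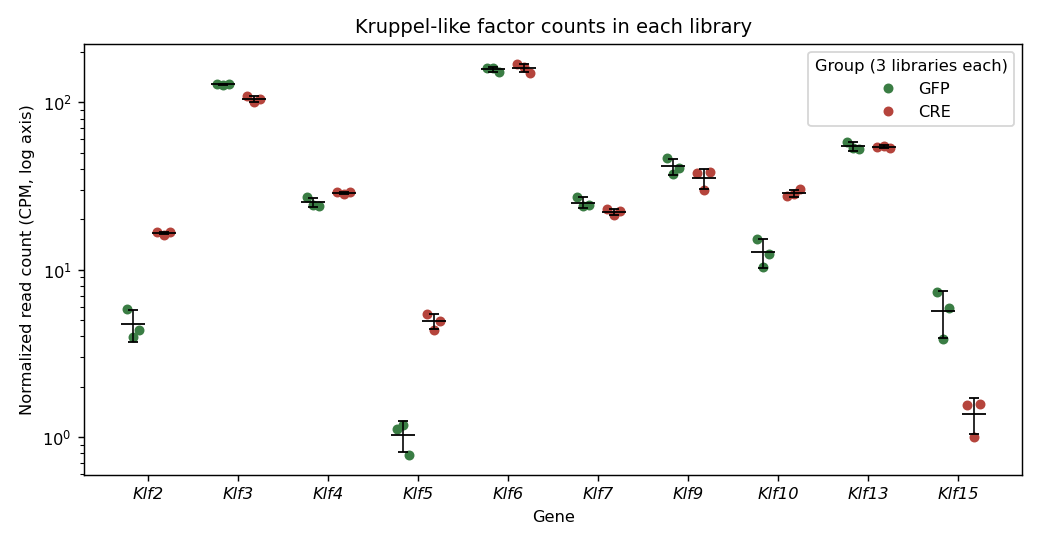
Normalized read count (CPM, log axis) of the 10 Kruppel-like factors in each of 3 GFP (green) and 3 CRE (red) libraries, with the group mean and SD as a bar and whiskers. The groups stand apart most clearly for *Klf2*, *Klf5*, *Klf10* and *Klf15*, whereas those of *Klf6*, *Klf9* and *Klf13* overlap.

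*Klf2* (ENSMUSG00000055148, chromosome 8, positions 72319033 to 72321656, plus strand) encodes the flow-responsive factor of endothelium, transcribed under the MEK5-ERK5-MEF2 pathway. It had 94, 70 and 84 counts in GFP and 311, 293 and 318 in CRE libraries. Every CRE library lay far above every GFP library, and the CRE libraries differed from each other by only 1.03-fold. The mean rose from 4.72 ± 0.997 to 16.6 ± 0.30 CPM (SD, n = 3), and the fitted log2 fold change was 1.82 (SE 0.13, edgeR adjusted p of 3.13e-06). Of 10 endothelial markers, 9 fell and none rose, against 25.7% lower among all tested genes, with summed levels between 412 and 456 CPM in GFP and between 197 and 228 CPM in CRE libraries. The 9 include *Cldn5* (19, 19 and 31 counts in GFP and 2, 2 and 7 in CRE libraries), which passed the filter on low counts only through the GFP group. The transcripts of *Klf2* and of endothelial markers thus moved in opposite directions. The part of cell makeup in the *Klf2* result was not tested, and in bulk RNA fewer cells of a type and less RNA per cell cannot be told apart.

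*Klf4* (ENSMUSG00000003032, chromosome 4, positions 55527143 to 55532466, minus strand), a reprogramming factor that also represses smooth muscle contractile genes, had 437, 435 and 463 counts in GFP and 540, 514 and 554 in CRE libraries. The groups did not overlap on CPM, but they lay close, at 25.2 ± 1.68 and 28.9 ± 0.40 CPM (SD, n = 3). The log2 fold change was 0.20 (SE 0.07, 95% interval 0.050 to 0.34), with an edgeR adjusted p of 0.0296. This call was lost under DESeq2 (adjusted p of 0.0975) and in 5 of the 6 fits that left out a library (all except GFP replicate 1), with the adjusted p reaching 0.113 without GFP replicate 3.

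*Klf5* (ENSMUSG00000005148, chromosome 14, positions 99298691 to 99315036, plus strand), which promotes proliferation in smooth muscle and epithelium, was the least abundant member in GFP libraries. Its counts were 18, 21 and 15 there and 101, 79 and 94 in the CRE libraries. The lowest CRE library (4.37 CPM) was far above the highest GFP library (1.18 CPM). The mean rose from 1.03 ± 0.22 to 4.92 ± 0.53 CPM (SD, n = 3), and the fitted log2 fold change was 2.26 (SE 0.22, edgeR adjusted p of 1.71e-05). Only 0.995% of tested genes had a larger absolute change. At so few counts the size is imprecise, and the 95% interval ran from 1.78 to 2.74. On log2(FPKM + 1), which understates changes of low genes, the change was 0.99.

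*Klf10* (ENSMUSG00000037465, chromosome 15, positions 38291463 to 38300706, minus strand) was first described as a gene induced early by TGF-β, and its product represses *Smad7* and activates *Smad2*. It had 247, 184 and 238 counts in GFP and 515, 509 and 573 in CRE libraries. The groups were clearly apart, GFP replicate 2 being the lowest. The mean rose from 12.7 ± 2.51 to 28.7 ± 1.37 CPM (SD, n = 3), and the fitted log2 fold change was 1.18 (SE 0.12, edgeR adjusted p of 2.34e-05). Its nearest relative *Klf11*, also TGF-β inducible, had 121, 114 and 163 counts in GFP and 144, 153 and 136 in CRE libraries, with overlapping groups and a log2 fold change of 0.06 (SE 0.13, edgeR adjusted p of 0.737).

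*Klf6* (ENSMUSG00000000078, chromosome 13, positions 5861482 to 5870394, plus strand), an injury-induced activator of TGF-β pathway genes, had 2589, 2840 and 2911 counts in GFP and 3162, 2922 and 2852 in CRE libraries. Its groups overlapped at 157 ± 5.38 and 161 ± 9.69 CPM (SD, n = 3), and the log2 fold change was 0.03 (95% interval -0.089 to 0.15, edgeR adjusted p of 0.666). It passed the threshold with library size alone (log2 fold change of 0.19, adjusted p of 0.00975) and on FPKM values (0.19, adjusted p of 0.0193). The median over all tested genes was 0.167 and 0.135 in these fits.

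*Klf7* (ENSMUSG00000025959, chromosome 1, positions 64029447 to 64122282, minus strand), which is best known from neurons, had 439, 424 and 470 counts in GFP and 427, 381 and 422 in CRE libraries. The groups did not overlap on CPM (25.2 ± 1.83 and 22.1 ± 0.93, SD, n = 3), but the change of -0.19 on the log2 scale (SE 0.07) did not pass the threshold (edgeR adjusted p of 0.0574). Without GFP replicate 2 it did (-0.22, adjusted p of 0.0490), and on FPKM values its sign was positive (0.013, adjusted p of 0.913). Exons of a pair of genes on the opposite strand overlap those of *Klf7*, and whether counting used the strand is not given in the sources used here.

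**Figure D2:**
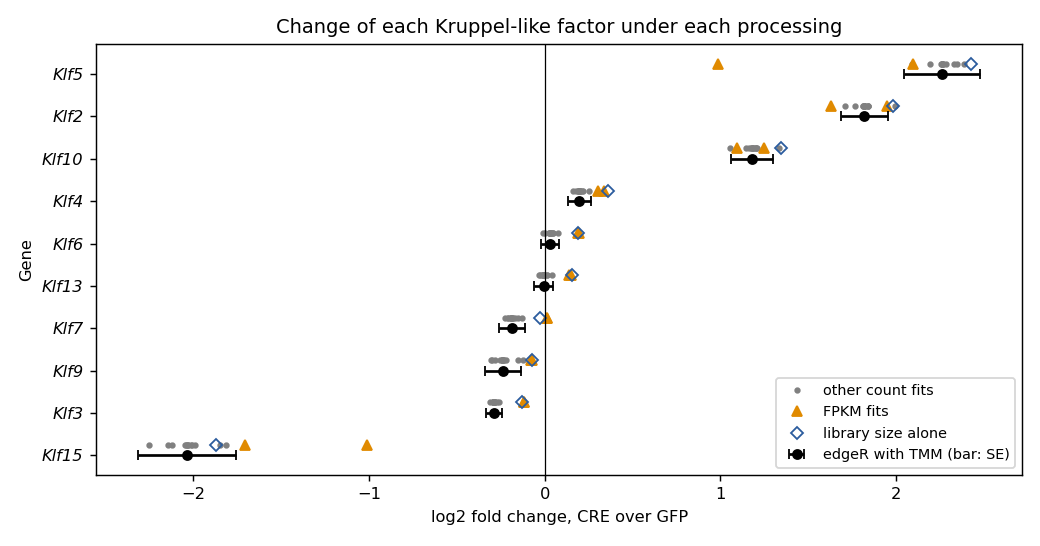
Log2 fold change (CRE over GFP) of each Kruppel-like factor by edgeR with TMM scaling (black, bar for the SE), beside the values from library size alone (blue diamonds), FPKM fits (orange triangles) and other count fits (grey). The 4 genes with changes over 1 in size stayed on their side of 0 in every fit, whereas *Klf6*, *Klf7* and *Klf13* crossed 0 in some.

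*Klf3* (ENSMUSG00000029178, chromosome 5, positions 64803388 to 64832901, plus strand), a repressor that works through the CtBP corepressor, had 2079, 2260 and 2475 counts in GFP and 2028, 1823 and 1994 in CRE libraries. After scaling the groups did not overlap, at 128 ± 0.95 CPM in GFP and 105 ± 4.0 CPM in CRE libraries (SD, n = 3). The change was small and precise, a log2 fold change of -0.29 (SE 0.04, edgeR adjusted p of 0.000386). On FPKM values the groups overlapped and the call was lost (log2 fold change of -0.12, adjusted p of 0.365). The median over all tested genes was 0.135 in that fit. A further point is that 1 gene on the opposite strand overlaps the exons of *Klf3*. *Klf12*, another repressor of the CtBP-binding group, fell further, from 297, 306 and 351 counts to 150, 165 and 211, a log2 fold change of -0.93 (SE 0.12, edgeR adjusted p of 9.74e-05).

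*Klf9* and *Klf13* encode repressors that recruit the SIN3 complex, and *Klf9* is also induced by thyroid hormone and glucocorticoids. *Klf9* (ENSMUSG00000033863, chromosome 19, positions 23141226 to 23168134, plus strand) had 748, 666 and 783 counts in GFP and 701, 537 and 725 in CRE libraries. The groups overlapped, CRE replicate 2 being the lowest, and the log2 fold change of -0.24 (SE 0.10) did not pass the threshold (edgeR adjusted p of 0.0830). Without GFP replicate 2 it did (-0.30, adjusted p of 0.0438). *Klf13* (ENSMUSG00000052040, chromosome 7, positions 63886351 to 63938915, minus strand) had 937, 940 and 1008 counts in GFP and 1012, 997 and 1009 in CRE libraries. Its groups overlapped at 54.5 ± 3.23 and 54.3 ± 0.97 CPM (SD, n = 3), and the log2 fold change of -0.0057 had a 95% interval from -0.13 to 0.12. With library size alone it was positive and passed the threshold (0.16, adjusted p of 0.0307).

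*Klf15* (ENSMUSG00000030087, chromosome 6, positions 90462576 to 90475238, plus strand), which controls amino acid use under glucocorticoids and represses *Ccn2* in cardiac fibroblasts, was the member that fell furthest. It had 119, 68 and 113 counts in GFP and 29, 18 and 30 in CRE libraries. The groups were well apart, although both varied, with GFP replicate 2 and CRE replicate 2 the lowest of their groups. The CRE mean of 1.38 ± 0.33 CPM compared with 5.70 ± 1.79 CPM in GFP libraries (SD, n = 3), and the fitted log2 fold change was -2.03 (SE 0.28, edgeR adjusted p of 0.000184). Only 1.51% of tested genes had a larger absolute change. On log2(FPKM + 1) the change of *Klf15* was -1.01.

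The members also varied within groups. GFP replicate 1 had the highest CPM of its group for 9 of the 10 members, where 38.2% of all tested genes were highest in that library. CRE replicate 2 was the lowest of its group for 7 of 10, against 33.8% of all tested genes. The largest spread in both groups was that of *Klf15*, with a highest library 1.93 times the lowest in GFP and 1.59 times in CRE. *Klf3* was the steadiest in GFP libraries (1.01 times).

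Levels of different genes were compared as FPKM, which is per length of transcript. *Klf6* was the most abundant member in both groups (35.3 ± 1.06 and 40.4 ± 2.42 FPKM in GFP and CRE, SD, n = 3), and *Klf3* followed (28.2 ± 2.27 and 26.0 ± 3.82 FPKM). The place of *Klf3* depends on the measure, since its CPM per kilobase of annotated exons was 11.4 in GFP and 9.34 in CRE libraries, the latter below *Klf4* at 9.48. In GFP libraries *Klf9*, *Klf13* and *Klf4* came next, between 8.01 and 8.76 FPKM on average, with overlapping ranges of neighbours. *Klf10* (4.24 ± 0.86 FPKM) and *Klf7* (3.33 ± 0.22) overlapped, as did *Klf2* (2.41 ± 0.51) and *Klf15* (2.37 ± 0.75), and *Klf5* stood last at 0.290 ± 0.061 FPKM. In CRE libraries the range of *Klf10* (10.1 ± 0.40 FPKM) overlapped that of *Klf4* (10.1 ± 0.12), and the range of *Klf2* (9.49 ± 0.15) overlapped that of *Klf13* (9.47 ± 1.03). By CPM per kilobase *Klf10* was lower than *Klf4* there (6.86 against 9.48). *Klf15* was last at 0.644 ± 0.15 FPKM, below *Klf5* at 1.56 ± 0.17.

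The summed level of the 10 members was 101 ± 2.85 FPKM in GFP and 119.5 ± 2.61 FPKM in CRE libraries (SD, n = 3). The sum of their CPM was 456 ± 19.6 and 458 ± 14.3, so that a difference between groups was seen in FPKM and not in scaled counts. *Klf2* took 2.37% of the summed FPKM in GFP and 7.94% in CRE libraries, and *Klf10* 4.19% and 8.43%. *Klf6* took 34.9% and 33.9%, and *Klf3*, whose level per length is lower by exon counts as given above, 27.8% and 21.7%.

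**Figure D3:**
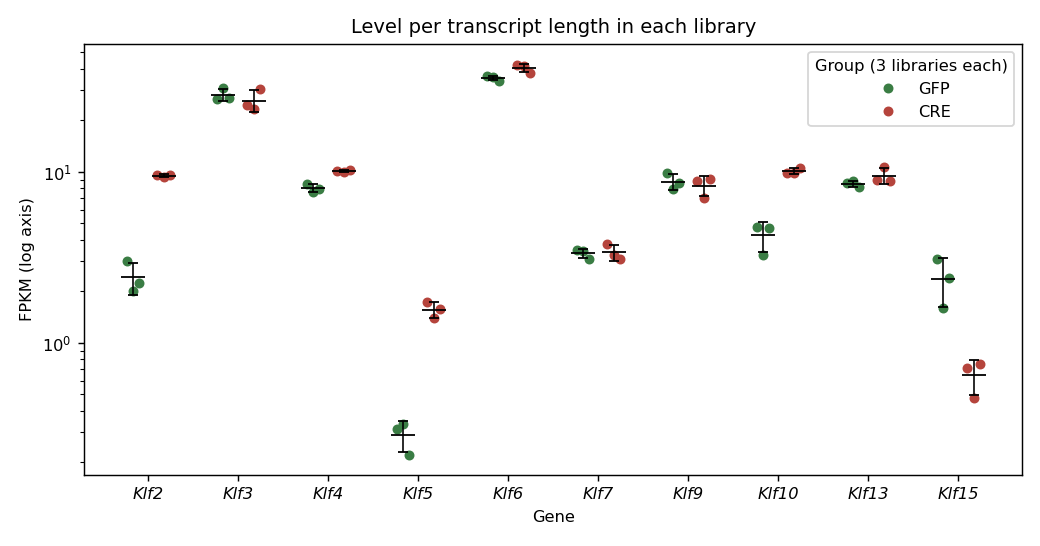
FPKM (log axis) of the 10 Kruppel-like factors in each of 3 GFP (green) and 3 CRE (red) libraries, with the group mean and SD. *Klf6* and *Klf3* had the highest FPKM in both groups, and in CRE libraries *Klf10* overlapped *Klf4* and *Klf2* overlapped *Klf13*.

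The ratio of a pair of genes within a library does not depend on how libraries are scaled, so 7 pairs of related or co-regulated genes were compared as log2 ratios of their counts. The *Klf2* to *Klf4* ratio was -2.22, -2.64 and -2.46 in GFP and -0.80, -0.81 and -0.80 in the CRE libraries, a shift of 1.64 (SE 0.12). *Klf4* over *Klf5* shifted by -2.08 (SE 0.19), *Klf9* over *Klf15* by 1.78 (SE 0.22), and *Klf10* over *Klf11* by 1.13 (SE 0.18). *Klf3* over *Klf12* shifted by 0.65 (SE 0.15) and *Klf6* over *Klf7* by 0.22 (SE 0.08). Groups did not overlap in these 6 pairs, each with an exact two-sided permutation p = 0.1, the smallest possible, and 0.117 after adjustment over the 7 pairs. No share over other pairs of genes was counted, while 59.6% of single tested genes had groups that did not overlap on CPM. The ratios use the same counts as the single-gene changes given above and are no separate evidence. *Klf9* over *Klf13* overlapped between groups (shift of -0.24, SE 0.14, exact permutation p = 0.2, adjusted p of 0.200).

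**Figure D4:**
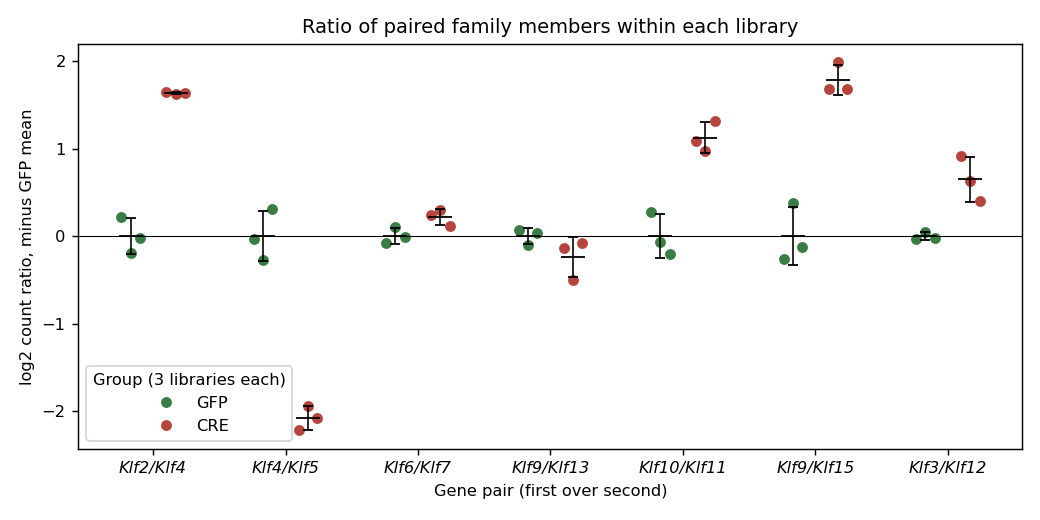
Log2 ratio of the counts of paired genes in each of 3 GFP (green) and 3 CRE (red) libraries, drawn relative to the GFP mean of the pair, with group mean and SD. The CRE libraries of *Klf2*/*Klf4* sit on average 1.64 above the GFP mean, those of *Klf4*/*Klf5* at -2.08, and only *Klf9*/*Klf13* overlaps between the groups.

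Of 17 further KLF and SP genes listed, 10 had enough counts to be tested, 2 were higher, 1 lower and 7 did not pass (30.0% called, median log2 fold change of -0.0091), where 51.2% of all tested genes were called. With library size alone 4 of these 10 were higher, as were 5523 of all 12862 tested genes. The lower gene was *Klf12*. *Sp4*, a relative of the ubiquitous activator *Sp1*, rose by 0.34 on the log2 scale (SE 0.10, edgeR adjusted p of 0.0125). *Sp6*, an epithelial member that was singled out after its values were seen, had 3, 4 and 4 counts in GFP and 26, 29 and 18 in CRE libraries. It passed the filter on low counts only through the CRE group, where it is high, and with at least 10 counts required in every library it was not tested and 1 gene of the list was higher.

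The pathway that induces *Klf2* and *Klf4* runs from the kinases MEKK2 and MEKK3 through MEK5 and ERK5 to MEF2 factors. Of its 7 tested genes 2 were higher and 2 lower (57.1% called, against 51.2% of all tested genes, median log2 fold change of -0.12). *Mef2d* fell from 1284, 1446 and 1406 counts to 1060, 1029 and 1091 (log2 fold change of -0.45, SE 0.05, edgeR adjusted p of 6.52e-05), and *Mapk7*, which encodes ERK5, fell by 0.41 on the log2 scale (SE 0.08, adjusted p of 0.00258). *Map3k2*, which encodes MEKK2, rose by 0.24 (SE 0.04, adjusted p of 0.00122). *Mef2a* rose by 0.15 (SE 0.05, adjusted p of 0.0213), a call lost without GFP replicate 2, GFP replicate 3 or CRE replicate 1 (adjusted p of 0.0738, 0.0668 and 0.0641). *Map3k3*, *Map2k5* and *Mef2c* did not pass. Without any of these 3 libraries the list had 1 higher gene.

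Hormone receptors and glucocorticoid-responsive genes were listed because *Klf9* and *Klf15* respond to these hormones. Of 11 tested, 5 were higher and 2 lower (63.6% called, against 51.2% of all tested genes, median log2 fold change of 0.47). The metallothioneins *Mt1* and *Mt2*, metal-binding proteins that zinc and glucocorticoids induce, rose by 1.75 (SE 0.13) and 1.69 (SE 0.11) on the log2 scale. *Fkbp5*, a chaperone of the receptor complex, had 407, 397 and 469 counts in GFP and 764, 664 and 582 in CRE libraries (log2 fold change of 0.59, SE 0.10, edgeR adjusted p of 0.000743). The phosphatase gene *Dusp1* rose by 0.58 (SE 0.07). Thus *Klf15* fell while *Fkbp5* rose. The next genes were named after their values were seen. *Tsc22d3*, *Per1* and *Sgk1*, also glucocorticoid-responsive, did not pass the threshold (log2 fold changes of -0.23, -0.055 and -0.10). Of the thyroid hormone receptor genes, *Thra* fell by 0.38 (SE 0.07, edgeR adjusted p of 0.00148) and *Thrb* rose by 0.47 (SE 0.10, adjusted p of 0.00367). The glucocorticoid receptor gene *Nr3c1*, chosen after its values were seen, had a log2 fold change of -0.15 (adjusted p of 0.0229) that turned to 0.017 with library size alone and was lost without GFP replicate 2, GFP replicate 3, CRE replicate 2 or CRE replicate 3 (adjusted p between 0.0686 and 0.0937), which left 1 lower gene in the list.

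Among 13 cofactors that KLFs recruit, 2 were higher, 2 lower and 9 did not pass (30.8% called, against 51.2% of all tested genes, median log2 fold change of -0.020). With library size alone 7 were higher, where 5523 of all 12862 tested genes were. Under DESeq2 1 was higher, where 2748 of all tested genes were. *Ctbp1*, the partner of KLF3, fell by 0.34 on the log2 scale (SE 0.05, edgeR adjusted p of 0.00015) from 1952, 2011 and 2237 counts to 1706, 1629 and 1795. The acetyltransferase gene *Crebbp* fell by 0.32 (SE 0.06, adjusted p of 0.00152), a call lost on FPKM values (log2 fold change of -0.035). The corepressor genes *Ncor1* and *Hdac3* rose by 0.23 (SE 0.04) and 0.18 (SE 0.05), the latter not past the threshold under DESeq2 (adjusted p of 0.0569).

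Of 7 ubiquitin ligase genes whose products are known to act on KLF proteins, 4 were higher and 2 lower (85.7% called, against 51.2% of all tested genes, median log2 fold change of 0.17). None was lower with library size alone, on FPKM values, or without GFP replicate 3, CRE replicate 2 or CRE replicate 3. Of all 12862 tested genes 3306 were lower with TMM scaling, 2085 with library size alone and 1916 on log2(FPKM + 1). *Smurf2* rose from 3047, 3275 and 3343 counts to 5451, 4751 and 4839, a log2 fold change of 0.57 (SE 0.06, edgeR adjusted p of 3.05e-05). *Fbxw7* and *Smurf1* rose by 0.31 (SE 0.08) and 0.28 (SE 0.06). *Siah1a*, which has a close copy in *Siah1b* that could share its reads, fell by 0.32 (SE 0.09, adjusted p of 0.0173), a call lost with library size alone (-0.15, adjusted p of 0.182), on FPKM values, and in 3 of the fits that left out a library (adjusted p of 0.0684 without GFP replicate 3, 0.0515 without CRE replicate 2 and 0.0647 without CRE replicate 3). *Wwp1*, the other lower gene, named after its values were seen, was at -0.16 on the log2 scale (SE 0.04, adjusted p of 0.0134), which turned to 0.0059 with library size alone and was lost without any of these 3 libraries (adjusted p between 0.0524 and 0.0573). Protein levels of KLFs were not analysed here.

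Genes that KLFs are known to regulate changed in both directions. Of 20 tested, 7 were higher and 10 lower (85.0% called, against 51.2% of all tested genes, median log2 fold change of -0.013). *Nos3*, the endothelial nitric oxide synthase gene that KLF2 and KLF4 activate, fell from 128, 111 and 104 counts to 16, 30 and 31 (log2 fold change of -2.23, SE 0.25, edgeR adjusted p of 4.61e-05), in the same direction as the endothelial markers given above and opposite to *Klf2*. Of the other KLF2 targets, chosen after their values were seen, *S1pr1* fell by 0.97 on the log2 scale (SE 0.06) and *Thbd* did not pass (0.12, SE 0.13, adjusted p of 0.472), except without GFP replicate 2 (0.30, adjusted p of 0.0110). *Ccnd1*, the cyclin D1 gene that KLF5 activates, rose from 255, 318 and 338 counts to 944, 959 and 917 (log2 fold change of 1.57, SE 0.07), and *Pdgfa*, another gene activated by KLF5 and chosen after its values were seen, rose by 0.72 (SE 0.09).

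The contractile genes that KLF4 represses fell. *Cnn1* and *Acta2*, for calponin and smooth muscle actin, had log2 fold changes of -1.56 (SE 0.11) and -1.35 (SE 0.07). For the KLF10 targets, chosen after their values were seen, *Smad2* fell by 0.33 (SE 0.05, edgeR adjusted p of 0.000333) and *Smad7* rose by 0.25 (SE 0.08, adjusted p of 0.0204), the latter with overlapping groups and not past the threshold without GFP replicate 2, GFP replicate 3, CRE replicate 1 or CRE replicate 2 (adjusted p between 0.0649 and 0.0731). For the KLF15 targets, also chosen after their values were seen, *Ccn2*, which it represses, rose by 0.95 (SE 0.14, adjusted p of 0.000324), and *Bcat2*, an enzyme of branched-chain amino acid breakdown that it activates, fell by 0.51 (SE 0.13, adjusted p of 0.00739), a call lost on FPKM values (adjusted p of 0.0641). *Prodh*, another gene of amino acid breakdown that KLF15 activates, had 14, 11 and 16 counts in GFP and 17, 14 and 19 in CRE libraries, with overlapping groups, and did not pass (0.22 on the log2 scale, SE 0.30, adjusted p of 0.582). Of the genes listed as targets of KLF6, *Plau* fell by 1.30 on the log2 scale (SE 0.20, adjusted p of 0.000366), *Eng* rose by 0.31 (SE 0.05, adjusted p of 0.00029) and *Tgfb1* did not pass (0.11, SE 0.06, adjusted p of 0.175). *Tgfbr1* had a log2 fold change of -0.14 (adjusted p of 0.0417) that turned to 0.026 with library size alone and was lost without GFP replicate 2, GFP replicate 3, CRE replicate 2 or CRE replicate 3 (adjusted p between 0.0748 and 0.172). *Ccl5*, a chemokine gene that KLF13 activates, rose by 1.26 (SE 0.32, adjusted p of 0.00725) from 30, 85 and 146 counts to 191, 220 and 237, and *Cdkn1a*, a cell cycle inhibitor gene that KLF4 activates, rose by 0.26 (SE 0.05, adjusted p of 0.00239). The genes from *Prodh* on were also named after their values were seen. These genes have many other regulators, and the part of any KLF in their change was not tested.

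**Figure D5:**
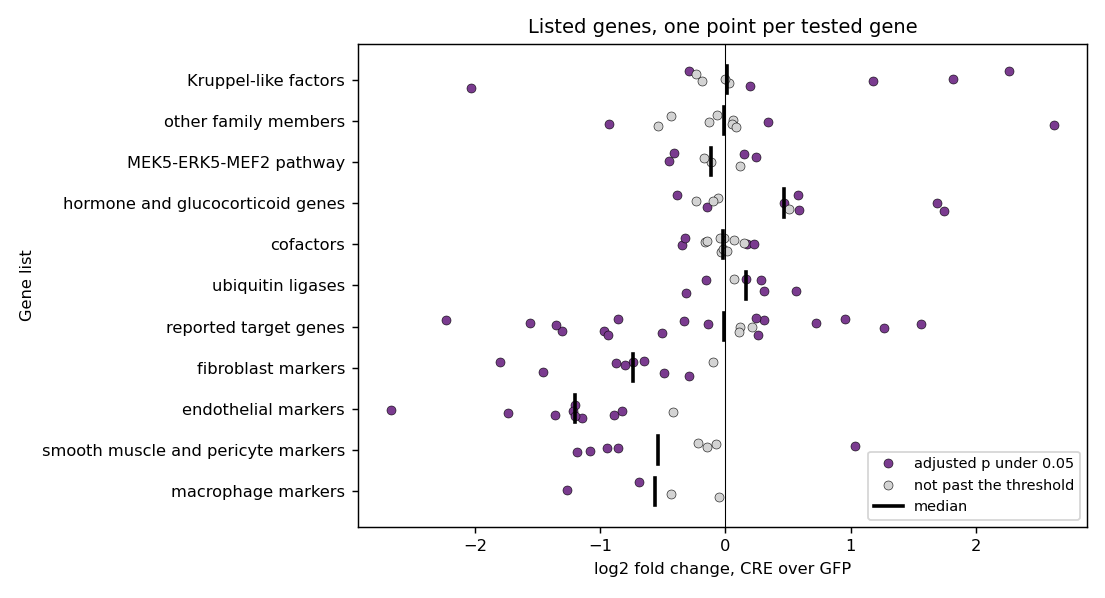
Log2 fold change (CRE over GFP) of each tested gene in the Kruppel-like factor set, in 6 lists of related genes and in 4 marker lists, with genes past an adjusted p of 0.05 in purple and the median of each list as a black bar. The Kruppel-like factors spread from -2.03 to 2.26 around a median of 0.012, and the endothelial markers lie to the left of 0.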

How the data were processed

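A single deposited table of 22063 genes was used. According to the study's methods, reads were cleaned with Trimmomatic, mapped on GRCm38 using HISAT2 and assigned to genes by HTSeq-count. The raw counts per gene and library were deposited without normalization, and FPKM values per library, with their group means, were obtained by the authors with Cufflinks. The deposited log2 fold change, p-value and false discovery rate come from the authors' own comparison and were not used. Tool versions are not given in the sources used here, and the labels and the methods name different library kits.

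Members and lists were chosen with earlier results of these data known. Groups and replicate numbers came from sample titles. The filterByExpr function (count of 10, total of 15) retained 12862 genes. The groups were compared by the quasi-likelihood test (two-sided) of edgeR 4.0.16 in R 4.3.3 with TMM scaling and Benjamini-Hochberg adjustment over all tested genes. Standard errors were derived from the log2 fold change and the F statistic (absolute change over the root of F). CPM used TMM-scaled library sizes. Library totals ran from 17002126 to 20343590 counts. Within a group, no pair of libraries was as alike as counting error alone would make it (chi-square per degree of freedom of at least 4.09).

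Named genes are the members, *Tet3*, *Klf11*, *Klf12* and, from each list, up to 4 genes with an adjusted p under 0.05, a mean of at least 1 CPM and the largest absolute change. Some other listed genes are named too, many of them marked as chosen after their values were seen. Alternatives were RLE, upper-quartile and library-size scaling, a filter of 1 count in all, a filter of 10 counts per library, DESeq2 1.42.0, limma 3.58.1 (voom, and log2 of FPKM plus 1 or 0.1), the replicate number as a block, and each library left out in turn. Coordinates are from GENCODE M21 (GRCm38), promoters from RefSeq (GRCm38.p6). Figures were drawn with matplotlib 3.10.9.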

Additional observations from a re-analysis of the deposited data

How the results depend on the processing

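Calls on *Klf2*, *Klf5*, *Klf10*, *Klf15* and *Tet3* were past the threshold with the same sign in all 16 other fits of each. The log2 fold change of *Tet3* was between -0.78 and -0.62 over the 6 fits that left out a library. The count of lower members was 1 in both FPKM fits, which did not call *Klf3*, and between 2 and 4 when a library was left out, 4 without GFP replicate 2, where *Klf7* and *Klf9* were added. That of higher members was 6 with library size alone, where *Klf6* and *Klf13* were added, 5 in both FPKM fits, 3 under DESeq2, and between 3 and 4 when a library was left out. Of all 12862 tested genes, 3277 were higher with TMM scaling and 5523 with library size alone. In the FPKM fits 4976 and 4989 were higher, and 2748 under DESeq2. Lower genes numbered 3306 with TMM scaling, 1916 and 1909 in the FPKM fits, and 3064 without GFP replicate 2. With library size alone the median over all genes was 0.17 on the log2 scale, and higher genes made up 72.6% of calls in place of 49.8%. On log2(FPKM + 1) and log2(FPKM + 0.1) the median was 0.135 and 0.165, with 72.2% and 72.3% of calls higher. Changes of this size are thus relative to the scaling.

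Same-numbered libraries were not paired by any label, and their deviations from group means correlated at 0.046, 0.18 and -0.018 for numbers 1, 2 and 3. The replicate block gave 4 lower members in place of 2, adding *Klf7* (-0.19, adjusted p of 0.0453) and *Klf9* (-0.24, adjusted p of 0.0155), and left the 4 higher ones. Of all 12862 tested genes it called 3260 higher and 3373 lower.

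Some genes near 0 changed sign. *Klf13* (-0.034 to 0.043 over the fits that left out a library) was positive with library size alone (0.16), upper-quartile scaling (0.013), log2(FPKM + 1) (0.14), log2(FPKM + 0.1) (0.15), and without GFP replicate 1 (0.043) or CRE replicate 3 (0.011). *Klf7* was positive in the FPKM fits (0.013 and 0.016). *Klf6* was at -0.0071 without CRE replicate 1 and at 0.079 without CRE replicate 3, and *Klf11* at -0.041 without GFP replicate 2 and -0.0010 without CRE replicate 2. *Nr3c1* was positive with library size alone (0.017) and in the FPKM fits (0.025 and 0.026), as was *Tgfbr1* (0.026 with library size alone, 0.015 in both FPKM fits) and *Wwp1* (0.0059 with library size alone, 0.025 and 0.026 in the FPKM fits). For library size the sign follows from the shift of all genes. The FPKM fits had a shift of like size (medians over all tested genes of 0.135 and 0.165), whose part in these signs was not tested. Elsewhere the cause was not tested either.

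Over the 6 lists together 68 genes were tested, and 22 were higher and 19 lower (60.3% called, against 51.2% of all tested genes). With library size alone 33 were higher and 15 lower, and in both FPKM fits 31 and 13. When a library was left out, between 19 and 22 were higher and between 15 and 21 lower. Of all 12862 tested genes, 3277 were higher and 3306 lower with TMM scaling, and 5523 and 2085 with library size alone. The FPKM fits called 4976 and 4989 of them higher, and 1916 and 1909 lower. Fits that left out a library called between 2717 and 3212 of them higher and between 2862 and 3288 lower. All 7 ratio shifts kept their sign when any library was left out. When levels were taken as CPM per length of annotated exons in place of FPKM, 6 of 10 members kept their rank in GFP and 5 of 10 in CRE libraries, and the cause was not tested.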

Other observations

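The deposited table assigns 600 genes to the C2H2 zinc finger family of transcription factors, the class to which the KLFs belong. Of the 483 that were tested, 85 rose and 81 fell in the knockout group (34.4%, edgeR adjusted p under 0.05), with a median absolute log2 fold change of 0.21. Without KLF and SP genes 79 rose and 78 fell of 463 tested (33.9%). Among all tested genes 51.2% passed and the median absolute change was 0.25. Of the 10 KLFs 60.0% passed, with a median absolute change of 0.26. The difference between these sets was not tested.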
